A study of Mus musculus with 41 samples.

Results

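The cytosolic ribosomal protein genes were followed through 41 RNA libraries from the dorsal striatum of mice that had self-administered cocaine or saline. Members were all genes of the count tables whose symbol is Rpl or Rps followed by a number, with or without a final a, x or l, together with Rplp0, Rplp1, Rplp2 and Rpsa. This rule gave 81 of 32531 named genes, 49 of the large and 32 of the small ribosomal subunit. Rpl10a is described apart, because the mice carry an EGFP-tagged Rpl10a transgene whose reads fall on the same gene, so that counts, shares and medians below refer to the other 80 members.

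The animals were adult mice of the line Drd1-TRAP CP73, of FVB/N-Swiss Webster origin crossed to C57BL/6 for at least 9 generations per the strain label, in which the Drd1 promoter drives the tagged ribosomal protein in dopamine D1 receptor cells. All groups, saline included, carry the transgene. In this method, TRAP, antibodies to EGFP capture tagged polysomes from the homogenised tissue, and the captured RNA was sequenced. After intravenous self-administration in a long-access study, tissue was taken about 1 month later from escalating cocaine (4 libraries), nonescalating cocaine (11) and saline (5) mice, and 24 h later from escalating cocaine (5), nonescalating cocaine (9) and saline (5) mice. A further 2 saline libraries are inputs, made from unpurified RNA, and their labels give no time. The replicate numbers of the nonescalating libraries restart, which splits them into sets of 6 and 5 at 1 month and of 6 and 3 at 24 h. These sets are called the first and second run here. The labels do not say why the numbers restart, and the main fits had no term for run. Among purified libraries at 1 month, the labels of escalating mice and of the second nonescalating run omit the word extended before self administration. Whether their sessions differed is not stated. The labels do not say that each library is 1 animal, so p-values measure the spread between libraries only.

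Each ribosome is built from a small subunit, which reads the messenger RNA, and a large subunit, which joins the amino acids. Their proteins are made in matched amounts, and their messenger RNAs commonly begin with a run of pyrimidines after a 5′ cytosine, the terminal oligopyrimidine (TOP) motif, through which the kinase mTOR and the RNA-binding protein Larp1 control their translation. In neurons, new protein synthesis is required for lasting changes at synapses.

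Libraries held 5394332 to 23925655 counts on named genes (median 11340272). The purified libraries matched their label: 7 D1 neuron markers summed to 1724 to 2645 CPM (counts scaled to 1000000 counts on named genes) in 39 purified libraries, against 960.3 and 1150 CPM in the inputs, and 6 D2 neuron markers summed to 110 to 374.5 CPM, against 1409 and 1516 CPM. Markers of endothelial cells varied widely, from 14.6 to 1526 CPM in purified libraries, against 24.5 and 29.2 CPM in the inputs. Saline replicate 5 at 24 h stood apart, with the fewest counts, the highest endothelial sum and an astrocyte marker sum of 1060 CPM, against at most 668 CPM in the other purified libraries. In such samples fewer cells of a type and less RNA per cell cannot be told apart.

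Ribosomal protein genes have many processed pseudogenes, and reads that fit several places are lost or assigned by the counting, so single members are uncertain. The tables list 6 pseudogenes with symbols of this family, and together these held at most 127 counts in any library. Pseudogenes under other symbols were not looked for, so this total does not bound the reads lost or misplaced. Of the 80 members, 76 passed the filter on low counts in the fit of every comparison described here. The other 4 were Rpl10l, which was listed at 0 in all libraries, Rpl26, with 1 count in all libraries together, Rpl39l with 14 and Rpl3l with 120. Rpl26 encodes a core protein of the large subunit, and its single count is not read here as its level in the cells.

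Start sites are shown for members on which the results below turn, with 30 bases before and 15 bases from the annotated first base of the transcript. Capitals mark the run of pyrimidines that opens with C within 5 bases of that start, where there is one. The sequences and positions are those of RefSeq on GRCm38.p6. In GENCODE M21, used for gene positions elsewhere here, Rps9, Rps23, Rpl38 and Rpl41 begin outside the windows shown, Rpl41 at 128549305. Whether a run lies at the start therefore depends on the annotation used. Rps9 (chr7:3704011-3704055, plus strand) encodes a small-subunit protein near the messenger RNA entry, and Rpl31 (chr1:39367821-39367865, plus strand) a protein on the rim of the exit tunnel. In both, the run opened just before the start and continued across it. In Rps23 (chr13:90923092-90923136, plus strand) and Rpl38 (chr11:114668550-114668594, plus strand), the members that varied most closely with the rest, the run began at or after the start. Rpl41 (chr10:128549154-128549198, minus strand), the smallest ribosomal protein, and Rpl13 (chr8:123102320-123102364, plus strand), the member that varied least with the rest, had no such run there.
Rps9: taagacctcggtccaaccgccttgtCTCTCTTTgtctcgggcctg
Rpl31: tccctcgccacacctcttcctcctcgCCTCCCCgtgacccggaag
Rps23: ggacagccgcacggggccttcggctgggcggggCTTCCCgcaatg
Rpl38: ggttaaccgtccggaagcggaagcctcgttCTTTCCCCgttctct
Rpl41: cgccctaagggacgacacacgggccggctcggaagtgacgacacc
Rpl13: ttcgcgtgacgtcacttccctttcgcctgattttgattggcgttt

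A start of this kind, searched as a C followed by 4 bases that are each C or T, on the coding strand only, was found in 28 of the 60 members that could be matched to a promoter (46.7%). Of 10588 other genes that passed the filter and had a promoter, 23.7% held it. A match is a description of the letters at an annotated start.

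In purified RNA, members differed widely in level when counts were set per kilobase of transcript. Their median was 51.5 CPM per kb over 76 members, above the 90th percentile of 13450 other genes (44.9 CPM per kb, with a median of 5.66). Of the 76 members, 59 lay within 2-fold of that median, with medians of 58.3 for 44 large-subunit and 45.8 CPM per kb for 32 small-subunit members. The order of single members depends on the transcript length used and on how many reads the counting could place.

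The 5 highest members were Rpl31 at 264 ± 69.7 CPM per kb (SD over 39 libraries), Rpl41 at 255.9 ± 72.6, Rps15 at 206 ± 65.3, Rpl4, which lines the exit tunnel, at 182 ± 27.6, and Rps25 at 146 ± 66.1. Neighbours in this order differed by less than the larger SD of the pair. The 5 lowest were Rps16 at 18.7 ± 6.38, Rpl35 at 10.1 ± 3.52, Rps4l at 7.47 ± 4.03, Rps27l at 5.29 ± 3.03 and Rps20 at 4.72 ± 2.03 CPM per kb. For Rps20 the annotation gives a transcript of 3706 bases. Per kilobase of coding sequence it stood at 49.0, and Rps16 at 47.4, whereas Rpl35 and Rps27l stayed low at 25.8 and 10.5.

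**Figure D1:**
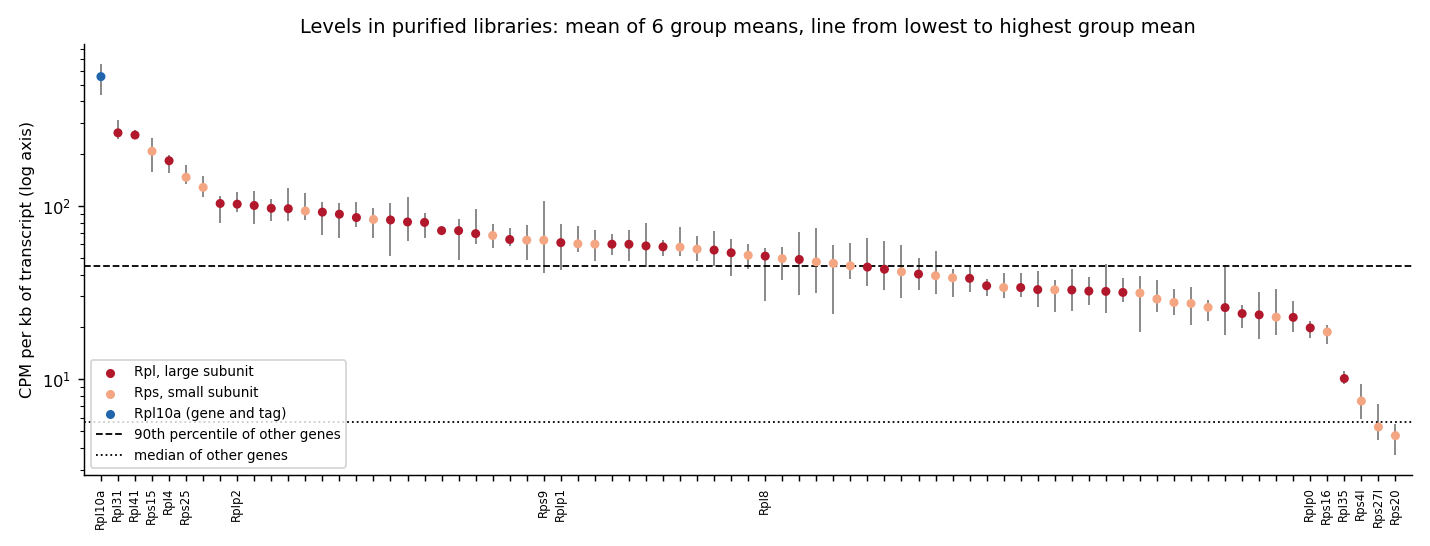
Level of 76 ribosomal protein genes and Rpl10a in purified RNA, in CPM per kilobase of transcript on a log axis, ordered from high to low, with some names on the axis. Points are the mean of 6 group means and lines run from the lowest to the highest group mean; Rpl31 leads at 264 and Rps20 ends at 4.72 CPM per kb, with Rpl10a above all others.

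The paralogs were far below the genes they are named after. Rps27l had a mean of 5.29 CPM per kb, against 128 for Rps27, and Rps4l, which the annotation lists as a transcribed processed pseudogene, had 7.47, against 67.4 for Rps4x. Rpl3l, a form known from muscle, had 0.144 CPM per kb, against 96.2 for Rpl3. Rpl39l, a form known from the testis, had 0.037 CPM per kb, against 25.9 for Rpl39.

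The stalk of the large subunit, which recruits the translation factors that hydrolyse GTP, is made of Rplp0, Rplp1 and Rplp2. Rplp2 stood at 102 CPM per kb, Rplp1 at 61.3 and Rplp0 at 19.8. Rplp0 averaged 26.9 ± 5.13 CPM in escalating, 27.5 ± 8.73 in nonescalating and 23.4 ± 2.67 in saline libraries at 1 month, and 28.8 ± 9.64, 24.7 ± 8.52 and 29.5 ± 22.7 CPM in the same groups at 24 h. Its highest value, 69.3 CPM, was in saline replicate 5 at 24 h. Rpsa, a small-subunit protein also known as a laminin receptor, averaged 52.5 ± 5.41, 59.3 ± 17.7 and 46.9 ± 3.39 CPM in escalating, nonescalating and saline libraries at 1 month, and 65.5 ± 21.1, 50.6 ± 9.74 and 49.1 ± 15.1 CPM at 24 h. The Rpsa means at 24 h differed by less than the SD of the escalating libraries.

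The members took 0.233% to 0.474% of all counts in purified libraries, against 0.238% and 0.283% in the inputs. At 1 month the share was 0.375 ± 0.029% in escalating (SD, n = 4), 0.362 ± 0.067% in nonescalating (n = 11) and 0.346 ± 0.029% in saline libraries (n = 5). At 24 h it was 0.386 ± 0.062% in escalating (n = 5), 0.340 ± 0.047% in nonescalating (n = 9) and 0.302 ± 0.084% in saline libraries (n = 5). The 95% Wilson interval of a share was at most 0.00859 percentage points wide, which covers counting error only. Saline libraries at 24 h differed among themselves: replicates 1 and 2 had 0.420% and 0.360%, and replicates 3, 5 and 6 had 0.233%, 0.255% and 0.240%.

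**Figure D2:**
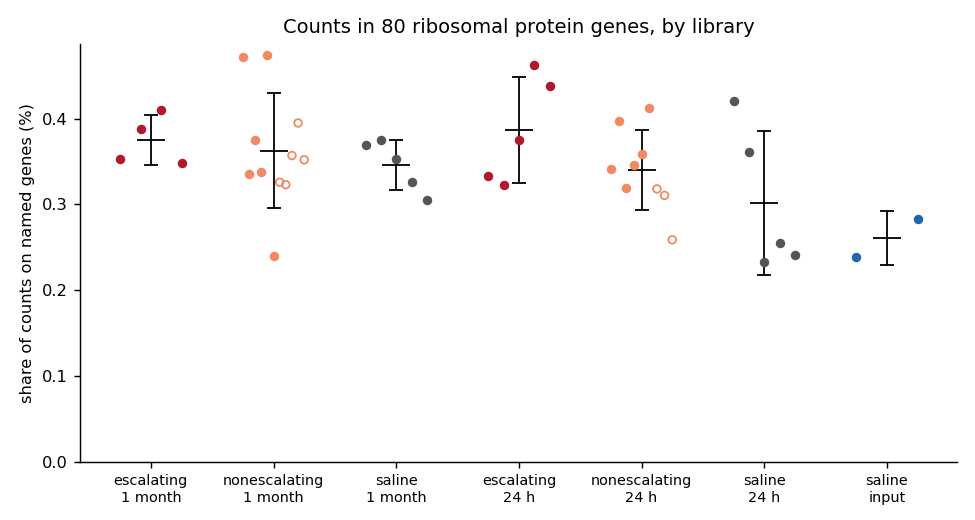
Share of counts on named genes that fell on 80 ribosomal protein genes (percent, axis from 0), for each library by group; open points are the second nonescalating run, and bars show mean and SD. The 5 saline libraries at 24 h span 0.233% to 0.420%, while all purified libraries span 0.233% to 0.474%.

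At 24 h after cocaine, no member passed the test in escalating against saline libraries. Of 76 members, 63 had a positive fold change, with a median of 0.34 on the log2 scale, while 47.0% of all 13437 genes tested were positive, with a median of -0.04. No gene of any kind was called (0%) by edgeR's quasi-likelihood test at an adjusted p under 0.05, and DESeq2 called no member and 0.365% of the genes it tested. At an unadjusted p under 0.05 there were 9 members, all higher, against a background of 10.7% of all genes, which is close to the members' own share. The median was 0.32 in large-subunit and 0.39 in small-subunit members, and 0.03 in 1030 other genes with transcripts under 1000 bases.

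Rpl8, which lies next to the peptidyl transferase centre (chr15:76904078-76906314), had the lowest p. It had 44.7, 37.14, 44.1, 58.1 and 53.5 CPM in escalating libraries, against 37.07, 33.5, 17.01, 10.2 and 22.3 CPM in saline libraries. The groups just failed to overlap, with saline replicates 3, 5 and 6 low. The log2 fold change was 0.93 ± 0.28 (standard error, as throughout; edgeR adjusted p = 0.351), and the adjusted p lay between 0.0718 and 0.605 in 19 alternative fits. Rps9 had 34.0, 39.1, 47.6, 62.1 and 215.9 CPM in escalating libraries, against 53.0, 41.3, 27.6, 9.83 and 21.6 CPM in saline libraries. One escalating library, replicate 5, lay far above the rest and the others overlapped with saline. Its log2 fold change of 1.34 ± 0.44 (edgeR adjusted p = 0.351) became 0.52 without that library.

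Rps27a encodes a small-subunit protein that is made as a fusion with ubiquitin. It had 25.4, 18.3, 19.7, 27.3 and 34.1 CPM in escalating libraries, against 25.02, 15.6, 6.59, 5.01 and 7.68 CPM in saline libraries, a log2 fold change of 1.02 ± 0.38 (edgeR adjusted p = 0.377). Saline replicate 1 reached the escalating range. Rps13 followed the same libraries, with 41.3, 21.3, 51.0, 55.4 and 49.2 CPM in escalating libraries, against 33.4, 35.8, 7.46, 3.52 and 12.3 CPM in saline libraries (1.20 ± 0.46, edgeR adjusted p = 0.39). Rpl14 had 45.4, 60.7, 72.2, 55.0 and 90.9 CPM in escalating libraries, against 40.0, 39.1, 37.9, 47.1 and 33.7 CPM in saline libraries (0.64 ± 0.22, edgeR adjusted p = 0.354).

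The median over the members turned on single libraries. It was 0.57 without saline replicate 1, 0.21 without saline replicate 3, 0.22 without escalating replicate 4 and 0.30 without saline replicate 5. Without that last library Rpl8 stood at 0.76, Rps9 at 1.13, Rps27a at 0.84, Rps13 at 0.94 and Rpl14 at 0.74. Escalating replicate 4 had the highest share of the group, 0.463%, and the highest microglial marker sum of all purified libraries, 42.9 CPM. The endothelial marker sum was 16.4, 91.4, 311, 138 and 72.1 CPM in escalating libraries, against 426, 14.6, 25.7, 1526 and 62.7 CPM in saline libraries, with medians of 91.4 and 62.7 CPM. All 6 of these markers had a negative fold change and none was called; the highest sums were those of saline replicates 5 and 1. Their part in the members' values was not tested.

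**Figure D3:**
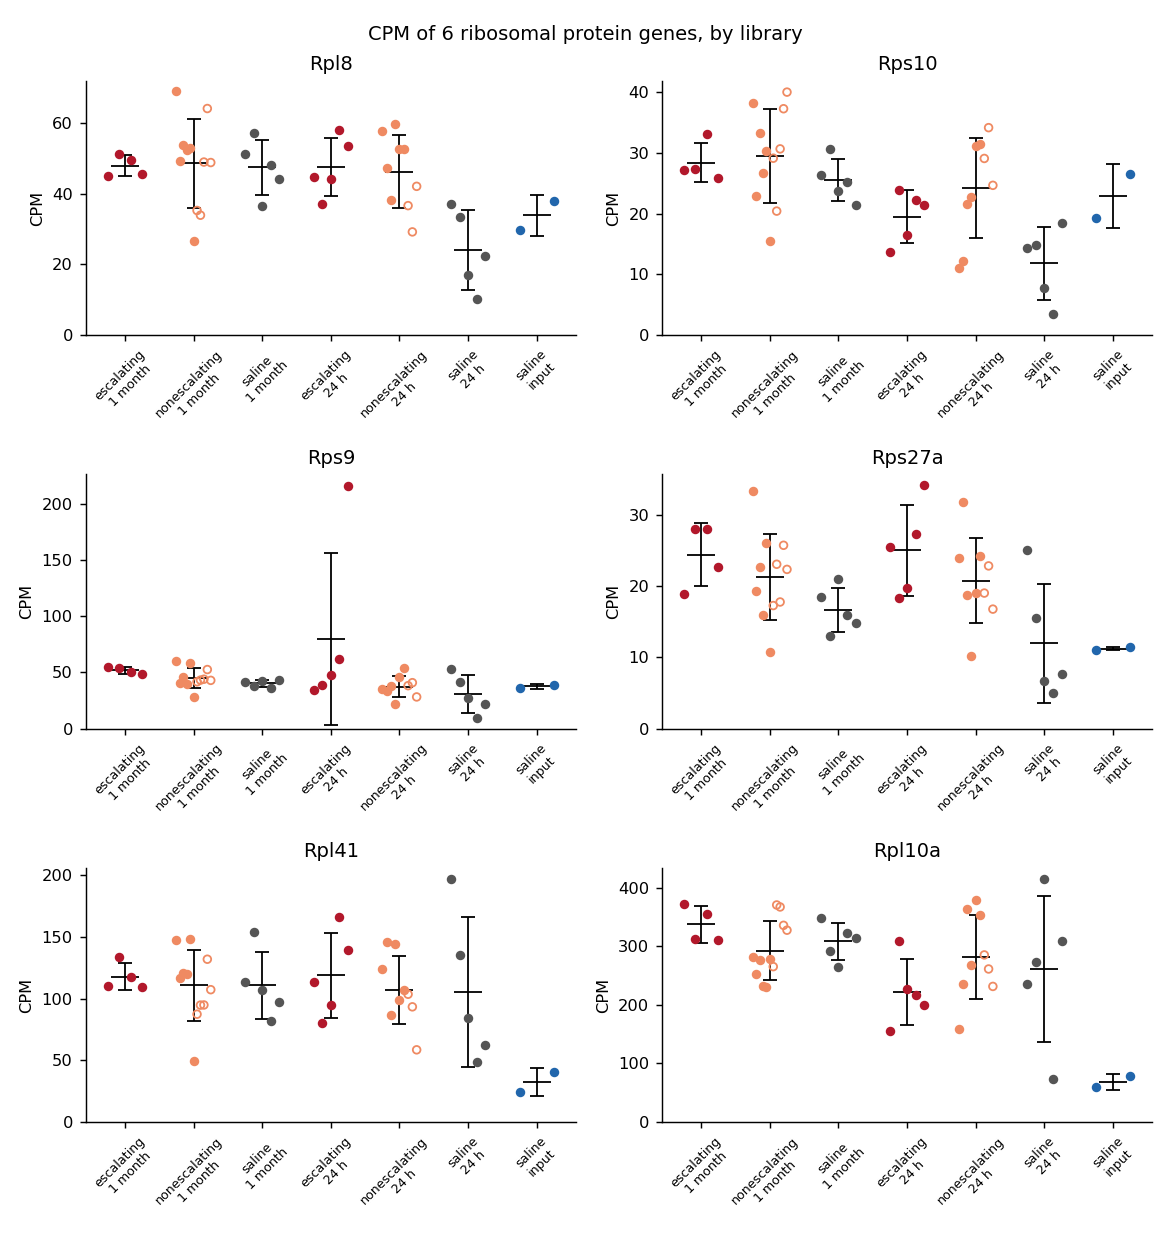
CPM of Rpl8, Rps10, Rps9, Rps27a, Rpl41 and Rpl10a (axes from 0) in each library by group; open points are the second nonescalating run, and bars show mean and SD. Rpl8 and Rps10 were lowest in saline at 24 h, Rps9 has 1 escalating library at 215.9 CPM, and Rpl41 and Rpl10a lie far lower in the inputs.

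In nonescalating against saline libraries at 24 h, the members lay near 0 as a group. Of 76, 43 had a positive fold change and the median was 0.05, against -0.01 over all genes. edgeR called no member and no gene (0% of 13437), DESeq2 called no member and 0.89% of genes, and 4 members had an unadjusted p under 0.05, all higher, against 11.9% of genes. The median changed sign with the runs: it was 0.16 with the first nonescalating run alone and -0.16 with the second. It was 0.18 without saline replicate 1, -0.04 without saline replicate 3 and 0.05 without saline replicate 5.

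Rpl8 again had the lowest p. Its 9 nonescalating libraries ran from 29.2 through a median of 47.1 to 59.6 CPM, against 10.2 to 37.07 CPM in the 5 saline libraries given above, and the groups overlapped. The log2 fold change was 0.88 ± 0.26 (edgeR adjusted p = 0.198). It passed when all 39 purified libraries were fitted together (0.87 ± 0.23, edgeR adjusted p = 0.0387) and was 0.50 with the second run alone. Rps10, a small-subunit protein marked with ubiquitin when ribosomes stall, ran from 11.1 through 24.7 to 34.2 CPM in nonescalating libraries, against 14.4, 14.8, 7.74, 3.52 and 18.5 CPM in saline libraries (0.97 ± 0.35, edgeR adjusted p = 0.285). Rpl13 ran from 25.7 through 64.4 to 199 CPM in nonescalating libraries, against 38.9, 29.6, 68.1, 33.0 and 31.7 CPM in saline libraries (0.85 ± 0.34, edgeR adjusted p = 0.326). Rps27a (0.73 ± 0.34) came next, and Rps9 had 0.22 ± 0.39. Rps27a stood at 1.15 without saline replicate 1. Without saline replicate 5, Rpl8 stood at 0.70, Rps10 at 0.75 and Rpl13 at 0.81. These comparisons share the saline libraries with the escalating comparison, so their values are not independent of it.

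Escalating against nonescalating libraries at 24 h used no saline library in the contrast. Of 76 members, 59 had a positive fold change with a median of 0.29, against -0.02 over all genes. edgeR called no member and no gene (0%), DESeq2 likewise called none (0%), and 10 members, all higher, had an unadjusted p under 0.05, against 4.0% of all genes. The median lay between 0.18 without escalating replicate 4 and 0.499 with the second nonescalating run alone, and no alternative turned its sign.

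Rps9 led with 1.12 ± 0.37 (edgeR adjusted p = 0.999), but 0.30 without escalating replicate 5. Rpl27a had 45.2, 37.6, 70.7, 58.8 and 54.7 CPM in escalating libraries, against 24.2 through a median of 29.9 to 46.4 CPM in nonescalating libraries, and the groups overlapped through escalating replicates 1 and 2. Its log2 fold change was 0.65 ± 0.25 (edgeR adjusted p = 0.999). Rpl3, which lies at the peptidyl transferase centre, had 98.4, 133, 247, 158 and 221 CPM in escalating libraries, against 106 through 117 to 170.2 CPM in nonescalating libraries (0.49 ± 0.20). Rps26, at the messenger RNA exit, and Rps13 had 0.69 ± 0.27 and 0.88 ± 0.39. Rps26 stood at 1.09 with the second nonescalating run alone. Rpl8 averaged 47.5 ± 8.28 CPM in escalating and 46.2 ± 10.35 CPM in nonescalating libraries (0.06 ± 0.25).

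At 1 month no member passed the test. In escalating against saline libraries 61 of 76 were positive (80.3%, against 45.1% of all genes, with medians of 0.12 and -0.03), in nonescalating against saline libraries 56 (73.7% against 51.3%, medians 0.10 and 0.01), and in escalating against nonescalating libraries 43 (56.6% against 42.6%, medians 0.02 and -0.04). edgeR and DESeq2 called no member and no gene in any of them (0%). No member had an unadjusted p under 0.05, against 1.29%, 3.6% and 1.22% of 14488 genes. With the second nonescalating run alone 45 were positive against saline (0.04), and escalating against nonescalating turned from -0.08 with the first run alone to 0.12 with the second.

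Rps27a had 18.9, 28.0, 28.0 and 22.7 CPM in escalating libraries at 1 month, against 18.5, 12.97, 20.9, 15.9 and 14.8 CPM in saline libraries. The groups overlapped through escalating replicate 1, and the log2 fold change was 0.51 ± 0.26 (edgeR adjusted p = 0.9998). Rps9 had 54.8, 53.8, 50.7 and 48.4 CPM in escalating libraries, against 41.7, 38.3, 42.6, 36.2 and 43.5 CPM in saline libraries. All escalating libraries lay above all saline libraries, by a small step: 0.31 ± 0.18 (edgeR adjusted p = 0.9998). Rpl8 did not share this, at 47.9 ± 3.03 CPM in escalating and 47.5 ± 7.75 CPM in saline libraries (-0.03 ± 0.22). Rpl18 (0.29 ± 0.21) and Rps28 (0.48 ± 0.37) were next by p. In nonescalating against saline libraries the 5 with the lowest p were Rps28 (0.59 ± 0.30), Rpl36a (0.57 ± 0.34), Rpsa (0.32 ± 0.19), Rps18 (0.44 ± 0.27) and Rps2 (0.37 ± 0.23), with Rpl8 at 0.03 ± 0.18 and Rps9 at 0.14 ± 0.14. In escalating against nonescalating libraries they were Rpl22 (0.33 ± 0.19), Rpl18 (0.20 ± 0.18), Rps9 (0.17 ± 0.15), Rpl36a (-0.37 ± 0.36) and Rpl27 (0.19 ± 0.18), with Rpl8 at -0.06 ± 0.19. Rpl36a against saline was 0.87 with the first nonescalating run alone and 0.15 with the second, and Rps2 was 0.57 and 0.13. Rps28 against saline was 0.34 with the second run alone, and Rpl22 was 0.14 without escalating replicate 4.

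**Figure D4:**
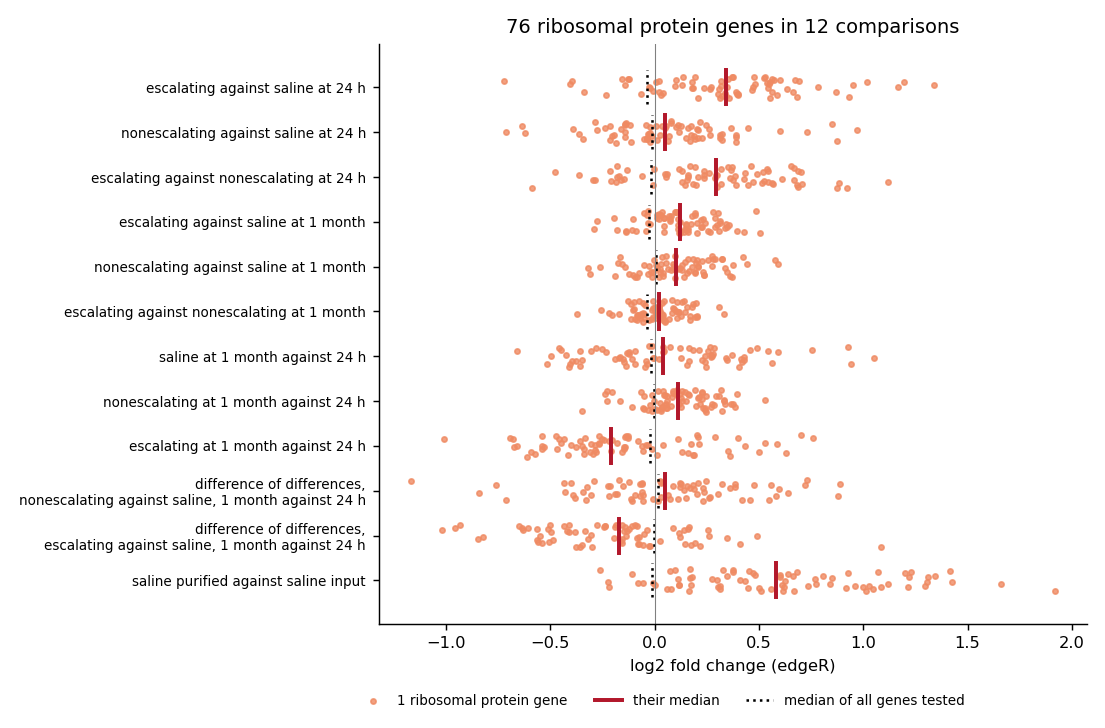
Log2 fold change of each of 76 ribosomal protein genes in 12 comparisons (edgeR), with their median and the dotted median of all genes tested. The members' median is 0.34 in escalating against saline and 0.29 in escalating against nonescalating libraries at 24 h, 0.02 to 0.12 in the other contrasts, -0.21 in escalating libraries at 1 month against 24 h, -0.17 in the escalating difference of differences, and 0.58 in purified against input RNA.

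In saline libraries at 1 month against 24 h, edgeR called 0.843% of all 15190 genes tested, none of them a member, and 9 members had an unadjusted p under 0.05, all higher at 1 month, against 16.4% of all genes. Of 76 members 40 were positive, with a median of 0.04, against -0.02 over all genes. The median was 0.25 without saline 24 h replicate 1, -0.05 without replicate 6 and 0.07 without replicate 5. DESeq2 called 2 members, Rpl8 and Rps10, where it called 4.37% of genes. The labels do not say whether libraries of both times were prepared together, so time and preparation cannot be told apart.

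Rpl8 had 51.2, 57.2, 36.5, 48.2 and 44.2 CPM in saline libraries at 1 month, against 37.07, 33.5, 17.01, 10.2 and 22.3 CPM at 24 h. The groups overlapped by 1 library each, and the log2 fold change was 0.93 ± 0.25 (edgeR adjusted p = 0.0609). It passed without saline 24 h replicate 1 (1.10, edgeR adjusted p = 0.0248), without replicate 2 (1.08, 0.0283), with size factors in place of TMM scaling (0.91, 0.0442) and with a filter on mean CPM (0.93, 0.0361). Rps10 had 26.4, 30.7, 23.8, 25.2 and 21.5 CPM at 1 month, against 14.4, 14.8, 7.74, 3.52 and 18.5 CPM at 24 h, without overlap (1.05 ± 0.31, edgeR adjusted p = 0.084). It passed only without saline 24 h replicate 6 (1.27, edgeR adjusted p = 0.0328), among the fits with edgeR. Without saline 24 h replicate 5, Rpl8 stood at 0.74 and Rps10 at 0.83 (edgeR adjusted p = 0.128 and 0.171). Rpl13 (0.94 ± 0.35) and Rpl6 (0.56 ± 0.22) followed, and Rps9 had 0.35 ± 0.34. Rpl13 was 0.44 without saline 1 month replicate 2 and Rpl6 0.34 without saline 24 h replicate 5.

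Nonescalating libraries at 1 month against 24 h had 60 of 76 members positive, with a median of 0.11 against -0.00377 over all genes. edgeR and DESeq2 called no member and no gene (0%), and 2 members, both higher, had an unadjusted p under 0.05, against 2.76% of genes. They were Rps14, on the platform of the small subunit (0.53 ± 0.26), and Rpl10, which joins the large subunit late in its assembly (0.31 ± 0.15). Rps2 (0.39 ± 0.20), Rpl5 (0.33 ± 0.18) and Rpl21 (0.21 ± 0.12) came next, with Rpl8 at 0.09 ± 0.18 and Rps9 at 0.28 ± 0.24. With the second run alone Rps14 stood at 0.15 and Rps2 at 0.21.

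In escalating libraries at 1 month against 24 h, the members leaned the other way, with 22 of 76 positive and a median of -0.21, against -0.02 over all genes. edgeR and DESeq2 called no member and no gene (0%), and 4 members had an unadjusted p under 0.05, against 5.5% of genes. Of these, 2 were higher. Rpl22, which most cells can do without, had 37.5 ± 8.39 CPM at 1 month (n = 4), against 21.6 ± 4.71 CPM at 24 h (n = 5), a log2 fold change of 0.76 ± 0.25 (edgeR adjusted p = 0.899). Rpl10 had 0.53 ± 0.23. The other 2 were lower: Rpl39, a short protein of the exit tunnel, had 13.4, 15.2, 14.9 and 13.3 CPM at 1 month, against 30.4, 11.02, 23.8, 41.4 and 31.4 CPM at 24 h (-1.01 ± 0.48, edgeR adjusted p = 0.90), and Rpl15 had -0.54 ± 0.25. Escalating replicate 2 at 24 h lay below all 1 month libraries for Rpl39 and the other 4 lay above them. Rpl15 stood at -0.35 without escalating 24 h replicate 5. Rpl28 (0.63 ± 0.32) completes the 5 with the lowest p, with Rpl8 at -0.03 ± 0.27 and Rps9 at -0.67 ± 0.36. The median was -0.06 without escalating 24 h replicate 4 and -0.13 without replicate 5.

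Whether the effect of cocaine differed between times was tested as a difference of differences. For escalating libraries 17 of 76 members were positive (median -0.17, all genes -0.00261). edgeR called no member and no gene (0%), DESeq2 called no member and 0.0147% of genes, and 2 members had an unadjusted p under 0.05, against 7.42% of genes. They were Rpl8 (-0.96 ± 0.37, edgeR adjusted p = 0.564) and Rps9 (-1.02 ± 0.49, edgeR adjusted p = 0.666), and Rps9 was -0.20 without escalating 24 h replicate 5. Rpl7 (-0.61 ± 0.36), Rpl14 (-0.54 ± 0.33) and Rps13 (-0.93 ± 0.58) followed. The median was -0.06 without escalating 24 h replicate 4, -0.37 without saline 24 h replicate 1 and -0.18 without saline 24 h replicate 5.

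For nonescalating libraries 43 of 76 members were positive (median 0.05, all genes 0.02). The median was -0.07 without saline 24 h replicate 1, 0.17 without replicate 3, 0.11 without replicate 5 and 0.24 with the second nonescalating run alone. edgeR called no member, where 0.00658% of genes were called, DESeq2 called no member and 0.507% of genes, and 2 members, both lower, had an unadjusted p under 0.05, against 11.8% of genes. They were Rpl13 (-1.17 ± 0.43, edgeR adjusted p = 0.26) and Rpl8 (-0.84 ± 0.31, edgeR adjusted p = 0.26), and Rpl13 was -0.67 without saline 1 month replicate 2. Rpl4 (-0.33 ± 0.16), Rps10 (-0.76 ± 0.38) and Rps14 (0.89 ± 0.44) followed, with Rps9 at -0.06 ± 0.41. Rps14 was 0.25 without saline 24 h replicate 5. With the second run alone Rpl13 was -0.77, Rpl8 -0.53, Rpl4 -0.05 and Rps14 0.50. The saline libraries are shared by these differences.

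Against input, 1 member rose in purified saline RNA: Rpl41. Of 76 members 69 were positive, with a median of 0.58, against -0.01 over all 15305 genes. The 1 call, higher, stands against 4.65% of genes called in either direction and 1.84% called higher. At an unadjusted p under 0.05 there were 13 members, all higher, against 18.3% of genes. DESeq2 called 4 members, all higher (Rpl41, Rpl31, Rpl19 and Rpl11), where it called 6.7% of genes.

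Rpl41 (chr10:128548114-128549305) had 113, 154, 107, 82.2 and 97.5 CPM in purified saline libraries at 1 month and 197, 136, 84.0, 48.4 and 62.1 CPM at 24 h, against 24.3 and 40.2 CPM in the inputs. Every purified library lay above both inputs, and the log2 fold change was 1.92 ± 0.46 (edgeR adjusted p = 0.0296). The call was lost without either input (edgeR adjusted p = 0.40 and 0.22), without saline 1 month replicate 1 or 3 (0.0523 and 0.0508), with total counts in place of TMM (0.0536) and without the 3 libraries described below (0.0519). Rpl31 averaged 121 ± 27.6 CPM at 1 month and 129 ± 50.6 CPM at 24 h, against 57.2 ± 9.88 CPM in the inputs (1.30 ± 0.36, edgeR adjusted p = 0.055). Rpl19 had 1.07 ± 0.31, Rpl11, which with Rpl5 binds the 5S ribosomal RNA, had 1.02 ± 0.30, and Rps16 had 1.20 ± 0.45. Rpl8 and Rps9 had 0.17 ± 0.39 and 0.08 ± 0.42.

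The number of members called was 7 without saline 24 h replicate 5, when 2302 genes were called in place of 712, and the members' median was then 0.55. Without input replicate 1 or 2 no member was called, and 43 or 49 genes were. In the same contrast endothelial markers had a positive fold change in 6 of 6 (median 3.73, none called), oligodendrocyte markers were called lower in 6 of 8 and astrocyte markers in 4 of 7, and their part in the members' values was not tested. Other genes with transcripts under 1000 bases had a median of 0.14 over 1283 genes.

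Rpl10a, the bait (chr17:28328471-28331033), had 373, 313, 356 and 310.3 CPM in escalating libraries at 1 month, 231 through a median of 279 to 371 CPM in nonescalating libraries, and 349, 292, 265, 322 and 315 CPM in saline libraries. At 24 h it had 156, 309.8, 226.5, 217 and 199 CPM in escalating libraries, 159 through 268 to 379 CPM in nonescalating libraries, and 236, 273, 416, 74.0 and 309.9 CPM in saline libraries. The inputs had 59.3 and 78.4 CPM. Purified saline libraries were above the inputs by 2.23 ± 0.45 (edgeR adjusted p = 0.0134), a call that was lost without either input (0.247 and 0.202). Saline replicate 5 at 24 h, at 74.0 CPM, lay within the range of the inputs.

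Between groups Rpl10a was not called. Its log2 fold change at 24 h was -0.31 ± 0.29 in escalating against saline, 0.03 ± 0.26 in nonescalating against saline and -0.33 ± 0.26 in escalating against nonescalating libraries. At 1 month these were 0.09 ± 0.14, -0.09 ± 0.11 and 0.18 ± 0.12. At 1 month against 24 h it was 0.57 ± 0.25 in escalating (edgeR adjusted p = 0.90), 0.06 ± 0.17 in nonescalating and 0.17 ± 0.23 in saline libraries, and the differences of differences were 0.40 ± 0.34 for escalating and -0.11 ± 0.29 for nonescalating libraries. Escalating against saline at 24 h was -0.06 without saline replicate 3 and -0.53 without replicate 5. Over 39 purified libraries its level, centred on group means, had a Pearson correlation of -0.04 with the mean of the members (-0.25 without saline replicate 5 at 24 h), given as a description of libraries that share scaling and depth.

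Other genes of translation were set beside the members, by counts and medians. At 24 h in escalating against saline libraries, 19 of 23 other TOP messenger RNAs were positive (median 0.27), 6 of 6 ribosomal protein genes outside the symbol rule (0.42), 7 of 11 elongation and release factors (0.25), 26 of 45 initiation factors (0.02), 33 of 50 ribosome biogenesis factors (0.11), 46 of 76 mitochondrial ribosomal proteins (0.10) and 10 of 23 regulators of this pathway (-0.14). None of these genes was called. In nonescalating against saline libraries the medians of the same lists were 0.05, 0.18, 0.08, 0.04, 0.10, 0.00377 and 0.02, again with none called.

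Among TOP messenger RNAs the poly(A)-binding protein gene Pabpc1 had 0.59 ± 0.17 and the initiation factor gene Eif4b 0.64 ± 0.19 in escalating against saline libraries (edgeR adjusted p = 0.351 for both), while the noncoding Snhg1 had -1.31 ± 0.51. The genes outside the symbol rule with the lowest p were Gnb2l1, which encodes the scaffold Rack1 on the small subunit (0.87 ± 0.39), and Rps3a1 (0.46 ± 0.26). Among genes listed as initiation factors Eif5a had -0.93 ± 0.23 (edgeR adjusted p = 0.329), and among elongation factors the neuronal form Eef1a2 had 0.57 ± 0.22. Of regulators, Tsc2, an inhibitor of mTOR, had -0.80 ± 0.29, Mtor itself -0.44 ± 0.19 and its partner Mlst8 -0.96 ± 0.44.

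Against input, Eif5a, listed here with the initiation factors by its name, rose (1.11 ± 0.29, edgeR adjusted p = 0.0428). So did the mitochondrial ribosomal protein gene Mrpl30 (1.56 ± 0.33, edgeR adjusted p = 0.0172) and the biogenesis factor gene Rrp1 (1.12 ± 0.30, edgeR adjusted p = 0.0471). The biogenesis factor gene Mdn1 fell by 0.93 ± 0.23 on the log2 scale (edgeR adjusted p = 0.0336). Calls were thus 1 of 45 genes listed as initiation factors, 1 of 75 mitochondrial ribosomal proteins, and 1 higher and 1 lower of 50 biogenesis factors. Among 23 other TOP messenger RNAs 1 was called higher, with 17 positive and a median of 0.39. Among 6 ribosomal protein genes outside the symbol rule 1 was called higher, with 3 positive and a median of 0.11. Of all genes, 4.65% were called. Without input replicate 1 or 2 only 43 or 49 genes of any kind were called. Mitochondrial ribosomal protein genes had 67 of 75 positive with a median of 0.66, beside 0.58 in the cytosolic members.

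Members varied together from library to library. Over 39 purified libraries, with log2 CPM centred on group means, 89.3% of pairs of members had a positive Pearson correlation, with a median of 0.40. The median correlation of a member with the mean of the others was 0.66, and 31 of 76 members reached 0.7, beside 0.404% of 15113 other genes. Leaving out saline replicate 5 at 24 h, 38 members reached it. Libraries share depth and scaling, genes under 1000 bases had a median of 0.16, and no test is given.

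Rps23, in the decoding centre (0.90), Rpl38 (0.90), Rpl24 (0.86), Rps27a (0.85) and Rps3 (0.85) varied most closely with the others. Rpl29 (0.22), Rps27l (0.19), Rpl10 (0.16), Rps14 (0.08) and Rpl13 (0.02) varied least. Without saline replicate 5 at 24 h, Rps14 stood at 0.23 and Rpl10 at 0.25, and the lowest were Rpl13 (0.02), Rps27l (0.13) and Rps27 (0.21). Outside the family, the genes whose pattern was most like the members' mean were Atp5o and Uqcr11 (0.90 each), Pebp1 (0.88), Ndufb2 (0.87), Atp5h (0.87), Cbr3 (0.87), Atp5j2 (0.84), Cox5b (0.83), Ubl5 (0.82) and Atp5g3 (0.81). Of these 10, Atp5o, Atp5h, Atp5j2 and Atp5g3 encode ATP synthase subunits, and Uqcr11, Ndufb2 and Cox5b encode subunits of the respiratory chain.

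A group of members broke with this in 3 purified libraries of 3 different groups, noticed after the values were seen: nonescalating replicate 4 of the first run at 24 h, saline replicate 2 at 1 month and saline replicate 3 at 24 h. Rps27 had 130.5, 104.5 and 117.7 CPM in them in that order, against 18.5 through a median of 38.2 to 56.6 CPM in the other 36 purified libraries. Rps25, which touches transfer RNA at the exit site, had 195.6, 153.1 and 229.3 CPM, against 28.7 through 75.3 to 123.5 CPM. All 3 lay above every other library for both genes.

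Rpl13 was high in the same libraries, at 199, 174 and 68.1 CPM, against 25.7 through 61.0 to 99.4 CPM in the others, and Rps16 had 46.5, 37.2 and 22.4 CPM, against 5.43 through 19.2 to 29.9 CPM. For these genes saline replicate 3 lay within the range of the others. At the low end in the same libraries were Rps4l, at 0.0846, 2.60 and 0 CPM, against 1.46 through 5.69 to 17.97 CPM, and Rps18, at 11.1, 9.56 and 4.49 CPM, against 8.19 through 22.9 to 41.4 CPM. For Rps4l saline replicate 2 overlapped with the other libraries, and for Rps18 only saline replicate 3 lay below them. Centred by gene and library medians, the profiles of 76 members in nonescalating replicate 4 and saline replicate 2 had a correlation of 0.76, the highest of 741 pairs of purified libraries (median 0.01), while over 15113 other genes the same pair had 0.14. Nonescalating replicate 4 and saline replicate 3 at 24 h had 0.675, the fifth of the pairs, and the saline libraries, replicate 2 at 1 month and replicate 3 at 24 h, had 0.457, at rank 35. The second pair, between nonescalating replicate 2 of the first run and escalating replicate 4 at 24 h, had 0.733. The 3 libraries were picked for their values in these same members, so the ranks describe them and are no independent support for a shared pattern. Without the 3 libraries the members' median was 0.22 in escalating against saline libraries at 24 h, with 58 of 76 positive, and -0.03 in nonescalating against saline libraries, with 32 positive.

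**Figure D5:**
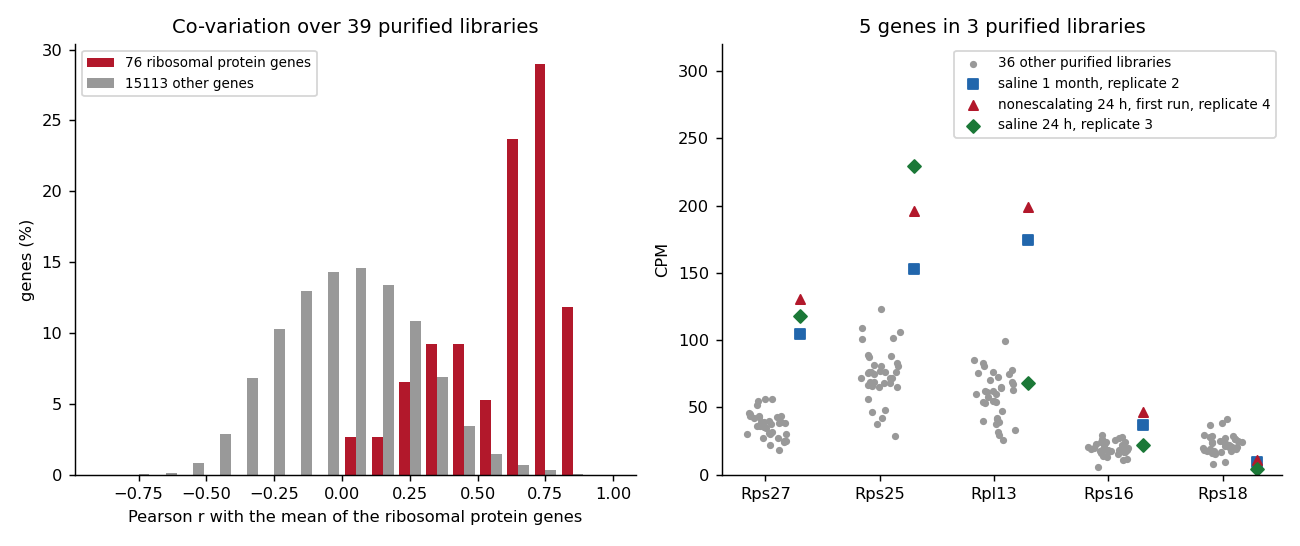
Left, share of genes (percent) by Pearson correlation with the mean of the ribosomal protein genes over 39 purified libraries, for 76 members and 15113 other genes; members peak between 0.7 and 0.8 and other genes near 0. Right, CPM of 5 members in 3 libraries (coloured) and 36 other purified libraries (grey); Rps27 and Rps25 lie above all other libraries in the 3, and Rps18 lies toward the low end.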

How the data were processed

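The authors deposited raw gene counts, 1 table a library. STAR 2.0.0e, HTSeq and the build mm10 are named in the submitters' processing notes. The annotation, the strand setting and the treatment of reads with several matches were not stated there or in the labels. The 5 summary lines of the counting program and an entry named unknown, with 0 counts, were left out, which left 32531 genes.

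Groups were compared with edgeR 4.0.16 in R 4.3.3 on the raw counts, with TMM scaling, filterByExpr, quasi-likelihood F tests and Benjamini-Hochberg adjusted p under 0.05 over all genes tested. The groups of 1 time shared a fit, comparisons over time used all 39 purified libraries, and purified against input used the saline groups. Standard errors are the size of the fold change over the root of F. DESeq2 1.42.0 was the second tool. The main fits did not pair libraries by replicate number. Deviations of same-numbered libraries correlated from -0.25 to 0.217 at 24 h (median -0.007) and from -0.475 to 0.167 at 1 month (median -0.037). Differently numbered libraries were not set beside them, so whether the numbers pair libraries was not decided.

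Transcript lengths and gene positions come from GENCODE M21 (GRCm38, which is mm10). The length is that of the shortest CCDS principal transcript, else of the shortest protein-coding transcript, else of the shortest transcript of any kind. Rps4l, a pseudogene without a coding sequence there, has a length of the last kind. Named are Rpl8, Rps9 and Rpl10a, members called or else the 5 with the lowest p, the 5 highest and lowest levels, stalk genes, paralogs, the 10 closest other genes and, of other lists, genes among the 3 with the lowest p. Some genes that this rule would name are not reported here. The 3 libraries set apart by some members, and genes named for them, were chosen after their values were seen. Members and lists were chosen with earlier results of these data known. Protein sequences were not used here. Alternatives were other scalings, filters, tools and fits, single nonescalating runs, a replicate block and leaving out libraries.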

Additional observations from a re-analysis of the deposited data

Results flagged for a closer look

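Each member named in the text was looked at, whether or not it passed the filter on low counts, in groups of 4 to 10 libraries for a library whose gap to the nearest other exceeded Dixon's 95% critical value. This marked 31 of 275 combinations of gene and group. About 1 in 20 would be marked for independent, normally spread values of genes chosen without regard to them. Some genes were named here for their extreme libraries, and marks gather in single libraries, so the rates cannot be compared. Values are CPM, with the range of the other libraries of that group after each.

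In escalating libraries at 1 month, Rpl36a was 8.11 in replicate 4 (15.9 to 16.95 in the others). In escalating libraries at 24 h, Rps9 was 215.9 in replicate 5 (34.0 to 62.1), and Rpl3l, which did not pass the filter, was 0.730 in replicate 4 (0 to 0.174).

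In nonescalating libraries at 24 h, replicate 4 of the first run was marked for 5 genes, all higher. Rps27 was 130.5 (21.8 to 45.1), Rps25 195.6 (37.9 to 100.7), Rpl13 199.2 (25.7 to 83.3), Rplp1 71.5 (14.5 to 37.7) and Rps16 46.5 (11.8 to 26.7). In the same run Rpl3 was 170.2 in replicate 6 (105.9 to 132.1), Rpl31 was 193.3 (76.2 to 131.8) and Rps27l 6.32 (0.673 to 3.22) in replicate 2, and Rps26 was 38.3 in replicate 1 (18.5 to 27.9). Rpl26, which did not pass the filter, was 0.0962 in replicate 5 of that run and 0 in the others.

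In saline libraries at 1 month, replicate 2 was marked for 10 genes. Higher were Rpl13 at 174.2 (47.1 to 67.1), Rps25 at 153.1 (56.2 to 81.1), Rps27 at 104.5 (25.1 to 39.9), Rplp1 at 79.3 (19.1 to 34.9), Rpl7 at 58.7 (42.6 to 45.1) and Rps16 at 37.2 (17.03 to 18.3). Lower were Rpl27 at 13.7 (18.8 to 19.7), Rpl27a at 18.1 (29.0 to 33.0), Rpl29 at 29.9 (49.5 to 55.0) and Rpl3 at 99.3 (120.6 to 126.7).

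In saline libraries at 24 h, Rpl22 was 34.6 (15.1 to 18.7) and Rpl36a 35.8 (6.83 to 13.95) in replicate 1. Rps27 was 117.7 (24.8 to 46.2) and Rpl13 68.1 (29.6 to 38.9) in replicate 3. Rplp0 was 69.3 (14.05 to 26.2), Rps14 59.9 (10.2 to 23.5) and Rpl6 29.5 (90.5 to 111.5) in replicate 5. Rpl3l was 0.155 in replicate 6 and 0 in the others.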

How the results depend on the processing

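Alternatives left 261 counts of called members unchanged and moved 17. Shares in parentheses are of all genes called in the same fit. In nonescalating against saline libraries at 24 h, 1 member was called with all 39 purified libraries in 1 fit (1.82%). The main fit called 0.843% of genes in saline libraries at 1 month against 24 h. There, the number of members called was 1 with size factors (1.46%), 1 with the mean CPM filter (2.16%) and 2 with DESeq2. Leaving out each library, the number was 0 to 1, and it was 1 without saline 24 h replicate 1 (1.7%), replicate 2 (2.13%) or replicate 6 (2.5%). In purified against input RNA it was 0 with total counts (4.35%), 2 with no filter (3.83%), 4 with DESeq2, 2 with a replicate block (1.02%), 0 without the 3 libraries set apart by some members (4.06%; chosen after seeing the data), and 0 to 7 when each library was left out (0.262% without input replicate 1, 2302 of 15323 genes without saline 24 h replicate 5). The cause was not tested. With the replicate block the members' median at 24 h was 0.41 in escalating against saline and 0.09 in nonescalating against saline libraries. It was 0.31 in escalating against nonescalating libraries at 24 h and 0.72 against input. Whether replicate numbers pair libraries was not decided. Reversed were Rpl36a in escalating against nonescalating libraries at 1 month (0.05907 with the second run alone) and Rpl10a. With the second run alone Rpl10a was -0.09559 in nonescalating against saline libraries at 24 h, 0.0997 at 1 month, -0.003686 in escalating against nonescalating libraries at 1 month and 0.2081 in the nonescalating difference of differences. With the first run alone it was -0.1581 in nonescalating libraries at 1 month against 24 h. Leaving out each library, it lay between -0.2027 and 0.2689 in nonescalating against saline libraries at 24 h, between -0.06682 and 0.4101 in saline libraries at 1 month against 24 h, and between -0.3401 and 0.13 in the nonescalating difference of differences. No alternative moved a members' median by more than the pooled SD of 0.317 between libraries. That SD is larger than most of these medians, so the limit is loose. The median changed sign in 4 of 21 alternatives in nonescalating against saline libraries at 24 h and 4 of 20 in escalating against nonescalating libraries at 1 month. It also did so in 4 of 27 in saline libraries at 1 month against 24 h and 4 of 29 in the nonescalating difference of differences. Groups of 4 to 11 libraries and 2 inputs limit every comparison.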
